A study of Mus musculus with 6 samples.

Results

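The 6 genes described here, Pfdn1, Pfdn2, Pfdn4, Pfdn5, Pfdn6 and Vbp1 (also called Pfdn3), encode the subunits of prefoldin, and they are 6 of the 24255 genes in the expression table. The set was chosen from a measured value, the fall of Pfdn4 mRNA in Lsm14b-KO oocytes, and the other 5 genes joined it because their products belong to the same complex. For this reason Pfdn4 is described without a test, and the question asked of the other 5 subunits was whether their mRNAs differed between the genotypes as well. All 6 genes passed the filter on low values described next, and none of them was listed at 0 in any library.

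The values come from RNA-Seq of fully grown oocytes (FGOs) at the germinal vesicle (GV) stage, that is, immature oocytes held in prophase of the first meiosis. Wild-type (WT) females were compared with females homozygous for the Lsm14b tm1a(KOMP)Mbp allele (Lsm14b-KO), a reporter-tagged insertion allele kept on the C57BL/6J background that disrupts the gene in the whole animal. The WT and Lsm14b-KO females alike had been given PMSG (5 IU), a hormone preparation that drives follicles to grow, and were sampled 46 h later, and their age was not given in the sources used here. There were 3 libraries per genotype with 20 oocytes each, and values for single libraries are given in the order of replicates 1, 2 and 3. Expression is in FPKM, fragments scaled to transcript length and library total, which allows levels of different genes to be compared per length. The 6398 genes that reached 1 FPKM or more in any library were tested with limma on log2(FPKM + 1), and every fold change below is Lsm14b-KO over WT on that scale, with Benjamini-Hochberg adjustment over all 6398 genes. It is not stated whether the libraries came from separate animals, so the p-values measure the spread between these libraries.

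Prefoldin is a jellyfish-shaped cochaperone of the cytosol built from alpha-class subunits (Pfdn5 and Vbp1) and beta-class subunits (Pfdn1, Pfdn2, Pfdn4 and Pfdn6). Its tentacles hold newly made actin and tubulin chains and hand them to CCT, the ring-shaped chaperonin that folds them. Oocytes depend on both products, since tubulin forms the meiotic spindle and actin moves it. Some subunits have further partners. Pfdn2 and Pfdn6 also sit in a prefoldin-like complex with Uri1, Uxt and Pdrg1, Pfdn5 is known as a binding partner of MYC, and Vbp1 as one of the von Hippel-Lindau protein.

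Fully grown oocytes hardly transcribe, and the fate of their stored mRNAs depends largely on the 3′ UTR, so the cytoplasmic polyadenylation element TTTTAT was searched for there on the transcript strand. It was found in the 3′ UTRs of Pfdn4 (3 copies), Vbp1 (7 copies, 2 of them overlapping) and Pfdn2 (2 copies), and not in those of Pfdn1, Pfdn5 and Pfdn6. Stretches of 30 bases around it are shown for the 3 subunits that hold it, 5′ to 3′ with the element in capitals and positions counted from the first base of the transcript. They were read from the GENCODE vM21 transcripts ENSMUST00000063682.11, ENSMUST00000033540.5 and ENSMUST00000135941.7. The stretches shown ended 288 and 141 bases from the 3′ end in Pfdn4, 732 and 181 in Vbp1, and 1153 and 667 in Pfdn2. The last poly(A) signal (AATAAA or ATTAAA) began 76, 25 and 20 bases from that end, in the same order. Whether any copy acts as a cytoplasmic polyadenylation element was not tested.
Pfdn4, bases 618 to 647: caTTTTATaatactttttTTTTATcttgtt
Pfdn4, bases 765 to 794: cttgcttatttaTTTTATatttttaaaaga
Vbp1, bases 834 to 863: atgctgcttttgTTTTATTTTATctgttat
Vbp1, bases 1385 to 1414: agttgtaagcttTTTTATtcatgataaaat
Pfdn2, bases 553 to 582: cttgtaatttctTTTTATtgtcgttattat
Pfdn2, bases 1039 to 1068: agggggcatctgTTTTATtatccccaacaa

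The element is common: 54.7% of 5813 tested genes with an annotated 3′ UTR held it. Genes with at least 3 copies passed the threshold as lower in Lsm14b-KO FGOs in 16.1% of 1227 cases, genes with 1 or 2 copies in 13.7% of 1955 and genes with none in 14.9% of 2631. The shares called higher were 7.91%, 8.08% and 4.83% in the same order, and the median log2 fold changes 0.09, 0.05 and -0.17. The median 3′ UTR lengths of these classes were 2554, 1013 and 375 nt, so copy number and length cannot be told apart here. Of the 3 subunits that hold the element, Pfdn4 had the lowest and Pfdn2 the highest fold change of the 6, as given below. The hexamer CCTCTC, searched for on the same strand, was absent from all 6 subunit transcripts, while 54.1% of 6308 tested transcripts held it. The subunit transcripts measure 807 to 1735 nt, against a median of 2262 nt for the tested ones. The part of length in this absence was not tested.

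The libraries differed in ways that touch these values. Depth could only be estimated relative to WT replicate 1, from the steps between the lowest FPKM values. The estimates were 1.33 to 2.17 in the Lsm14b-KO libraries against 1.00 to 1.14 in the WT libraries. They rest on the most common ratio among genes under 0.1 FPKM. In WT replicate 2 it was shared by 179 of 316 such genes. The counts were 117 of 323 in Lsm14b-KO replicate 2 and 115 of 367 in replicate 3. The summed FPKM was 564671 to 1029728 in the Lsm14b-KO libraries and 1141324 to 1244182 in the WT libraries, with Lsm14b-KO replicate 1 nearest to WT. Lsm14b itself was at 1.72 to 3.98 FPKM in the WT libraries and at 0 to 0.10 in the Lsm14b-KO libraries. All 11 oocyte markers were detected in every library, with summed levels of 44683 to 56749 FPKM in WT and 30704 to 74920 FPKM in Lsm14b-KO, most of it Dppa3. Of these markers Padi6 was called higher in Lsm14b-KO (log2 fold change 1.41, adjusted p = 0.0304) and 10 did not pass. The 7 red blood cell markers in the table were listed at 0 throughout. Of 12 cumulus and granulosa markers, 5 (Amh, Inhba, Foxl2, Cyp11a1 and Nr5a1) were listed at 0 in all libraries, and the summed level was 9.73 to 13.5 FPKM in WT and 6.13 to 10.2 FPKM in Lsm14b-KO. Cyp19a1 was called lower in Lsm14b-KO, at 8.26 to 11.5 FPKM in WT and 3.00 to 5.76 FPKM in Lsm14b-KO (adjusted p = 0.0426), and Fshr did not pass, at 0.349 to 1.68 and 1.82 to 2.07 FPKM (adjusted p = 0.0923). The part of these markers in the subunit values was not tested.

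In WT FGOs the subunit mRNAs were present at very unequal levels, although the subunits are assembled into one complex. Pfdn4 averaged 5726 ± 845 FPKM (SD, n = 3) and ranked between 41 and 53 among all genes of a library. Vbp1 followed with 2238 ± 389 FPKM and ranks of 94 to 119, then Pfdn1 with 283 ± 31.0 FPKM, Pfdn5 with 111 ± 9.29 FPKM, Pfdn6 with 87.5 ± 14.8 FPKM and Pfdn2 with 34.2 ± 1.19 FPKM. The order was the same in each of the 3 WT libraries, and no neighbours in it overlapped across libraries, although Pfdn5 and Pfdn6 came close. The most and the least abundant subunit thus stood 141-fold to 180-fold apart within a WT library.

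In Lsm14b-KO FGOs the order changed to Vbp1, Pfdn1, Pfdn4, Pfdn5, Pfdn2 and Pfdn6. Only Vbp1 and Pfdn1 kept values that did not overlap, and all other neighbours overlapped across the 3 libraries. Pfdn4 moved to ranks of 329 to 729. Pfdn2, the scarcest subunit mRNA in WT, lay above Pfdn6 in 3 of 3 Lsm14b-KO libraries.

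**Figure D1:**
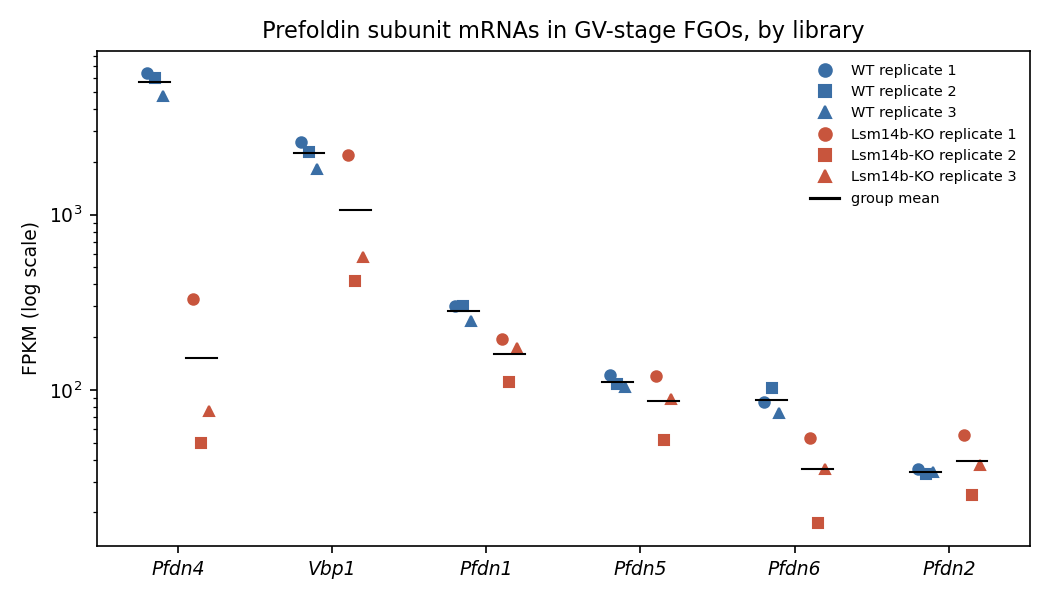
FPKM of the 6 prefoldin subunit mRNAs (log scale) in each WT (blue) and Lsm14b-KO (red) library, with group means as bars. Pfdn4 lay at 4780.3 to 6406 FPKM in WT and at 49.8 to 331 FPKM in Lsm14b-KO, whereas the groups overlapped for Vbp1, Pfdn5 and Pfdn2.

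Pfdn4, a beta-class subunit (chromosome 2, 170496428 to 170519123, plus strand, GRCm38/mm10), stood at 6406, 5991 and 4780.3 FPKM in the WT libraries. The Lsm14b-KO libraries held 331, 49.8 and 75.8 FPKM, which is 5.77%, 0.869% and 1.32% of the WT mean. Every Lsm14b-KO library was far below every WT library, and replicate 1 was the highest of the Lsm14b-KO libraries. The means differed 37.7-fold, and the log2 fold change from the fit was -5.71 (SE 0.64). The value stayed between -6.51 and -4.91 under all 16 alternative settings. Each library pools 20 oocytes, so less Pfdn4 mRNA in every oocyte and fewer oocytes that hold it cannot be told apart. The part of poly(A) tail length in the Pfdn4 values was not tested.

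Vbp1, an alpha-class subunit (chromosome X, 75514299 to 75534942, plus strand), stood at 2599, 2288 and 1826 FPKM in the WT libraries. The Lsm14b-KO libraries held 2181, 417 and 572 FPKM. Replicate 1 of the Lsm14b-KO group lay within the WT range and the other two lay below it, at 18.7% and 25.6% of the WT mean. The fitted log2 fold change of -1.46 (SE 0.58) did not pass the threshold (adjusted p = 0.105). Leaving out Lsm14b-KO replicate 1 gave -2.18 and an adjusted p of 0.000882, so the call for Vbp1 turned on that library.

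Pfdn1, a beta-class subunit (chromosome 18, 36403676 to 36454524, minus strand), was at 299.8, 301 and 247 FPKM in WT and at 196, 111 and 174 FPKM in Lsm14b-KO. The groups did not overlap and all Lsm14b-KO values were lower, but the log2 fold change of -0.85 (SE 0.32) did not pass the threshold (adjusted p = 0.0936). Leaving out Lsm14b-KO replicate 1 gave -1.01 and an adjusted p of 0.0155.

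Pfdn6, a beta-class subunit shared with the prefoldin-like complex (chromosome 17, 33938821 to 33940343, minus strand), was at 85.6, 103 and 73.8 FPKM in WT and at 53.0, 17.4 and 35.3 FPKM in Lsm14b-KO. The groups did not overlap. Pfdn6 fell, with a log2 fold change of -1.41 (SE 0.42) and an adjusted p of 0.0475 that lies just inside the threshold of 0.05. The direction held under all 16 alternative settings and the call under 6 of them. It was lost when any WT library was left out (adjusted p 0.114 to 0.158), and without Lsm14b-KO replicate 2 (0.0701) or 3 (0.133), while without replicate 1 it was 0.00539.

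Pfdn5, an alpha-class subunit (chromosome 15, 102326116 to 102331873, plus strand), was at 121, 108 and 103 FPKM in WT and at 119, 51.7 and 88.4 FPKM in Lsm14b-KO. The groups overlapped through Lsm14b-KO replicate 1, and the fit gave -0.43 (SE 0.36, adjusted p = 0.385) on the log2 scale. Its level is uncertain, because the processed pseudogene Gm5644 on chromosome X matches its transcript at 97.0% identity over 465 nt.

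Pfdn2, a beta-class subunit shared with the prefoldin-like complex (chromosome 1, 171345670 to 171359254, plus strand), was at 35.6, 33.2 and 33.9 FPKM in WT and at 55.1, 25.2 and 37.3 FPKM in Lsm14b-KO. The Lsm14b-KO libraries spread to both sides of the narrow WT range. On the log2 scale the fit gave 0.12 (SE 0.33, adjusted p = 0.796), and Pfdn2 was the only subunit with a fitted value above 0. Its transcript shares 535 nt with Klhdc9, a gene on the other strand listed at 0 in the WT libraries and at no more than 0.293 FPKM in the Lsm14b-KO libraries.

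Of the 5 subunits other than Pfdn4, 1 passed the threshold as lower in Lsm14b-KO FGOs and 0 as higher, while 15.2% of all tested genes were called lower and 6.38% higher. Without Lsm14b-KO replicate 1 the count was 3 (Vbp1, Pfdn1 and Pfdn6), and without any other single library it was 0. Of all 6398 tested genes, 1747 were called lower and 1151 higher without Lsm14b-KO replicate 1, against 975 and 408 with all libraries. Without any other single library, 315 to 865 genes were called. In 2 of the 5, Pfdn1 and Pfdn6, the groups did not overlap and the Lsm14b-KO libraries were lower, which was the case for 26.0% of the tested genes. The median log2 fold change of these 5 subunits was -0.85, against -0.08 over all tested genes, with Pfdn2 above the latter. None came near the -5.71 of Pfdn4.

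Because the summed FPKM differed between libraries, the fold changes were set on other scales. Scaling every library to the same sum (TPM) moved the median of all tested genes by 0.48 on the log2 scale. Relative to the median of all genes on each scale, Pfdn4 was at -5.63 with the deposited FPKM, -5.42 with TPM, -5.12 after quantile normalization and -4.98 after correction for transcript length and GC content. Vbp1 stood at -1.38, -1.17, -0.72 and -0.84 on these scales and Pfdn6 between -1.33 and -0.87. Pfdn1 lay at -0.77, -0.56, -0.19 and -0.44. Pfdn5 was at -0.35, -0.14, 0.06 and -0.06, so no direction can be given for it. Pfdn2 remained above the median at 0.20, 0.40, 0.51 and 0.28. With TPM its groups did not overlap, at 28.9 ± 0.73 in WT and 51.1 ± 5.70 in Lsm14b-KO (SD, n = 3). Pfdn2 then passed the threshold as higher (log2 fold change 0.80, adjusted p = 0.0437). The same scaling called 833 of all tested genes higher, against 408 with the deposited FPKM. On the deposited scale Pfdn2 turned to -0.15 once Lsm14b-KO replicate 1 was dropped, so its direction there rested on that library. Pfdn6 no longer passed on any of the 3 other scales (adjusted p 0.0840 to 0.108).

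**Figure D2:**
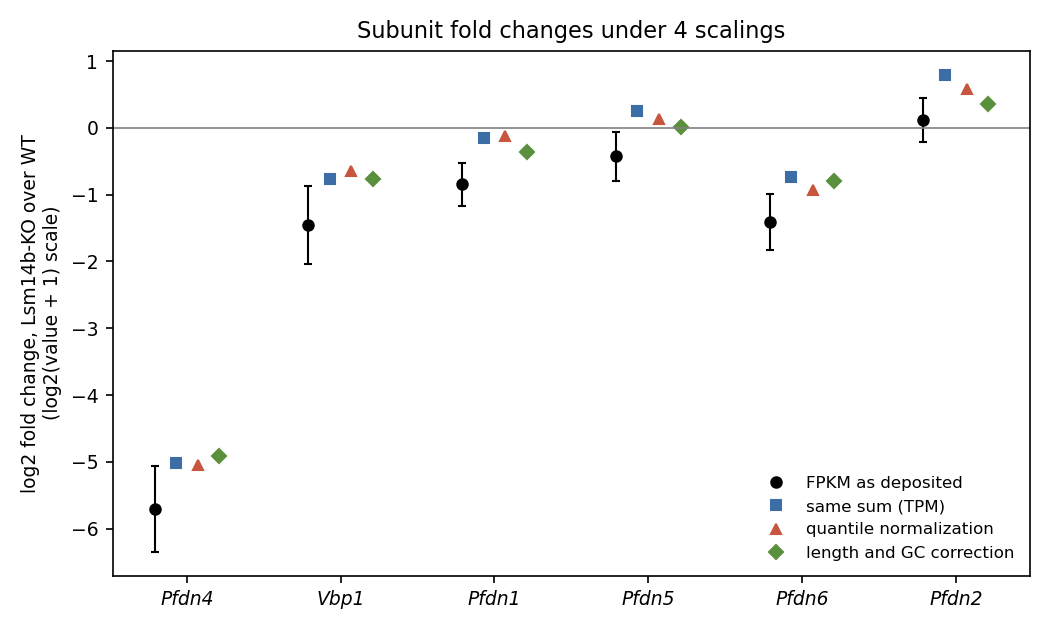
Log2 fold change (Lsm14b-KO over WT) of each subunit with the deposited FPKM (black, with SE), TPM (blue), quantile normalization (red) and length and GC correction (green). Pfdn4 stayed below -4.9 on every scale, Pfdn5 changed sign and Pfdn2 stayed above 0.

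Ratios between subunits within a library do not depend on a factor shared by all its genes, such as its total. They can still change under quantile normalization or the length and GC correction, which shift genes by different amounts. The ratio of Pfdn4 to Vbp1 mRNA was 2.46, 2.62 and 2.62 in WT and 0.152, 0.119 and 0.132 in Lsm14b-KO libraries. It was therefore far more alike among the Lsm14b-KO libraries than the level of either gene, which differed 6.64-fold for Pfdn4 and 5.23-fold for Vbp1 between Lsm14b-KO replicates 1 and 2. The other 4 subunits differed less between these 2 libraries, from 1.77-fold for Pfdn1 to 3.05-fold for Pfdn6. A wide gap between replicates 1 and 2 was not particular to Pfdn4 and Vbp1. Of the partner genes described below, Tbca stood at 1191 and 185 FPKM in them and Txndc9 at 1286 and 254 FPKM. Other genes, such as Actb (40.0 and 163 FPKM), went the other way.

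Relative to Pfdn2, each of the other lower-abundance subunits stood lower in the Lsm14b-KO libraries. The ratio of Pfdn6 to Pfdn2 was 2.41, 3.11 and 2.18 in WT and 0.962, 0.690 and 0.945 in Lsm14b-KO. The ratio of Pfdn1 to Pfdn2 was 8.43, 9.06 and 7.28 in WT and 3.56, 4.41 and 4.65 in Lsm14b-KO, and that of Pfdn5 to Pfdn2 was 3.41, 3.24 and 3.05 against 2.17, 2.06 and 2.37. None of these 3 ratios overlapped between the groups. Pfdn2 was the only subunit with a fitted value above 0, so the direction of these ratios follows from the fold changes above. They restate those values and are no separate support, and other gene pairs were not examined. The ratio of Vbp1 to Pfdn1 gave no such split, at 8.67, 7.60 and 7.40 in WT and 11.1, 3.76 and 3.29 in Lsm14b-KO.

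As a share of the summed FPKM of the 6 subunits, Pfdn4 made up 67.6% ± 0.41 in WT and 8.79% ± 2.14 in Lsm14b-KO libraries (SD, n = 3). Vbp1 went from 26.3% ± 0.77 to 64.9% ± 8.39 and Pfdn1 from 3.35% ± 0.19 to 13.6% ± 6.04. The shares of Pfdn5 (1.32% and 6.92%), Pfdn6 (1.04% and 2.66%) and Pfdn2 (0.410% and 3.14%) were likewise higher in Lsm14b-KO. A lower share of Pfdn4 raises the other shares by arithmetic, so they were also taken without Pfdn4. Vbp1 then held 79.9% to 82.7% in WT and 63.1% to 83.7% in Lsm14b-KO libraries, which overlapped. Pfdn2 held 1.13% to 1.48% in WT and 2.12% to 4.12% in Lsm14b-KO libraries, which did not. The share of Pfdn5 did not overlap either, at 3.80% to 4.53% in WT and 4.59% to 9.74% in Lsm14b-KO libraries. Those of Pfdn1 and Pfdn6 overlapped. Vbp1 made up most of this sum, so a lower Vbp1 level likewise raises the other shares by arithmetic.

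**Figure D3:**
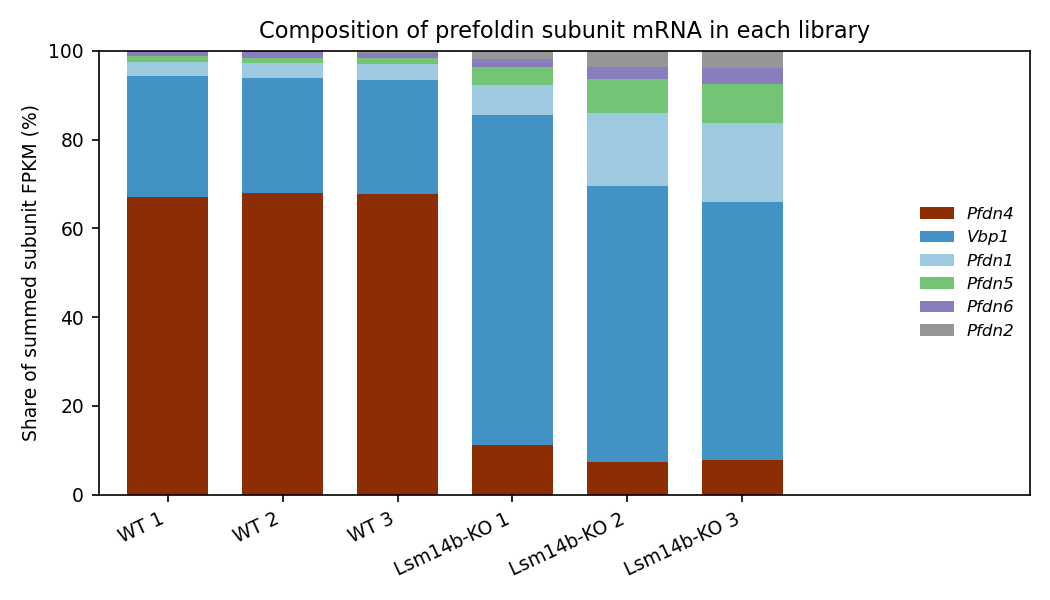
Share of each subunit in the summed FPKM of the 6 prefoldin subunits, in percent, for each of the 6 libraries. Pfdn4 (brown) was 67.1% to 67.9% of the sum in WT and 7.40% to 11.3% in Lsm14b-KO, where Vbp1 (dark blue) was 58.2% to 74.3%.

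By annotation Pfdn5 overlaps Myg1 on the same strand, Pfdn6 overlaps CR974462.1 on the other strand, and Pfdn2 overlaps Gm37154 and Klhdc9. The part of these overlaps in the subunit values was not tested. Pfdn4 overlaps other genes as well, both on the other strand. The antisense RNA Gm16796 shares 639 exonic bases with it (20.1% of its own exons), and was at 1.15, 1.25 and 1.13 FPKM in WT and 0.0667, 0.0914 and 0.164 FPKM in Lsm14b-KO. Gm16796 fell by 0.98 on the log2 scale (SE 0.18, adjusted p = 0.0117), and leaving out Lsm14b-KO replicate 3 gave an adjusted p of 0.0528. At such low levels the size depends on the pseudocount, and it was -2.65 with a pseudocount of 0.1 and -0.15 with 10. Without a stated use of strand in the counting, fragments of Pfdn4 and Gm16796 cannot be told apart in the shared bases. The other overlapping gene, Cyp24a1, shares 83 exonic bases and was listed at 0 in 5 libraries. The neighbour Bcas1 was at 0.902 to 1.68 FPKM in WT and 0.865 to 1.34 FPKM in Lsm14b-KO, with overlapping groups (adjusted p = 0.586).

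Pfdn4 and the targeted gene Lsm14b lie on the same chromosome, 9.51 Mb apart. From the start of Pfdn4 to the end of Lsm14b, 76 other genes had values and 30 were tested. Of these, 11 passed the threshold as lower (36.7%) and 1 as higher (3.33%), with a median log2 fold change of -0.77. Gm16796, which lies within Pfdn4, is among the 11, so the counts are not independent of the Pfdn4 locus. On the remainder of chromosome 2, 60 of 445 tested genes were lower (13.5%) and 27 higher (6.07%), with a median of -0.08. The number called lower or higher in the interval ranged from 2 to 20 over the alternative settings, with 2 without WT replicate 1 or Lsm14b-KO replicate 3 and 20 without Lsm14b-KO replicate 1. Without that last library 2898 of all tested genes were called, against 1383 with all libraries. The part of chromosomal position in the Pfdn4 value was not tested.

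Pfdn4 and Pfdn6 have the shortest transcripts among the subunits, at 935 and 807 nt, and the others measure 1062 nt (Pfdn5), 1109 nt (Pfdn1), 1595 nt (Vbp1) and 1735 nt (Pfdn2). The median over 6308 tested genes was 2262 nt. Of 939 tested genes with transcripts under 1000 nt, 196 were lower (20.9%) and 13 higher (1.38%), and their median log2 fold change was -0.63, beside 15.2%, 6.38% and -0.08 over all tested genes. After correction for length and GC content the log2 fold change of Pfdn4 was -4.91 and that of Pfdn6 was -0.80 (adjusted p = 0.0840). The part of length in the deposited values was not otherwise tested.

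The genes whose log2(FPKM + 1) followed that of Pfdn4 most closely over the 6 libraries were 0610009B22Rik (Pearson r = 0.9999), Ufm1 (0.9999), Med11 (0.9998), Fam204a (0.9991) and Taf13 (0.9991), out of 2559 genes with a mean of at least 5 FPKM. Ufm1 is a ubiquitin-like modifier, Med11 a Mediator subunit and Taf13 a TFIID subunit. Like Pfdn4, each of them was low in all Lsm14b-KO libraries and highest among these in replicate 1. That pattern follows from how these genes were picked and is no separate result. For example, 0610009B22Rik was at 6069, 5614 and 4627 FPKM in WT and 523, 118 and 159 FPKM in Lsm14b-KO. The other subunits ranked far lower in likeness to Pfdn4, with Pfdn6 at 604 (r = 0.933), Pfdn1 at 617 (0.932), Vbp1 at 886 (0.871), Pfdn5 at 1254 (0.709) and Pfdn2 at 1694 (0.078). These coefficients span only 6 libraries in 2 groups and largely reflect the difference between the groups.

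Genes that act with prefoldin were taken from lists of its known partners and clients. In the prefoldin-like and R2TP complex, which assembles RNA polymerases and other large complexes, 9 of the 10 listed genes had values, and 3 of 7 tested genes passed as lower and 0 as higher, beside 15.2% and 6.38% of all tested genes, and the median log2 fold change was -0.79. Pdrg1, a subunit of the prefoldin-like complex, was at 7.37, 8.69 and 8.85 FPKM in WT and 3.92, 3.78 and 3.59 FPKM in Lsm14b-KO (log2 fold change -0.96, SE 0.20, adjusted p = 0.0162). Polr2e, an RNA polymerase subunit, fell by 0.89 (adjusted p = 0.0443) and the AAA+ ATPase Ruvbl1 by 1.22 (adjusted p = 0.0426) on the log2 scale. Ruvbl1 was low, at 3.26 to 5.53 FPKM in WT and 0.465 to 2.71 FPKM in Lsm14b-KO. Its value was -1.80 with a pseudocount of 0.1 (adjusted p = 0.0550) and -0.33 with 10 (0.0455). The alpha-class-like subunit Uxt split as Vbp1 did, at 2.24, 3.47 and 2.56 FPKM in WT and 3.30, 0.459 and 0.603 FPKM in Lsm14b-KO (adjusted p = 0.180, and 0.00420 with replicate 1 left out). The values were 0.23 for the scaffold Uri1 (adjusted p = 0.486), -0.22 for Pih1d1 (0.613) and -0.07 for Wdr92 (0.828), while Rpap3 and Ruvbl2 stayed under 1 FPKM and were not tested. With TPM scaling and with the length and GC correction, 0 genes of the list passed, and 0 passed when any WT library or Lsm14b-KO replicate 3 was left out, 1 when replicate 2 was and 4 when replicate 1 was. With Lsm14b-KO replicate 1 left out, 2898 of all tested genes passed, against 1383 with all libraries. Under the 16 alternatives Pdrg1 passed in 10, Polr2e in 6 and Ruvbl1 in 5, always as lower.

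CCT is the chaperonin that receives substrates from prefoldin. Of its 7 tested subunits 3 passed as higher and 0 as lower, beside 6.38% and 15.2% of all tested genes, and the median log2 fold change was 0.76. Cct3 was at 27.3, 27.4 and 21.3 FPKM in WT and 51.3, 45.4 and 57.4 FPKM in Lsm14b-KO (log2 fold change 1.00, SE 0.27, adjusted p = 0.0350). Cct4 rose by 1.29 (adjusted p = 0.0137) from 0 to 0.739 FPKM in WT to 1.88 to 2.80 FPKM, and Cct2 by 0.88 (adjusted p = 0.0445). For genes this low the size of the log2 value is set largely by the pseudocount, and for Cct4 it was 2.84 with a pseudocount of 0.1 and 0.24 with 10. Cct8 had the smallest value at 0.28 (adjusted p = 0.385). All 7 had values above 0 on each of the 4 scales, and Cct4, Cct3 and Cct2 passed in 13, 10 and 8 of the 16 alternatives. Without WT replicate 2, WT replicate 3 or Lsm14b-KO replicate 3 none passed, with 1 without WT replicate 1 and 5 without Lsm14b-KO replicate 1. Leaving out Lsm14b-KO replicate 1 raised the number of all tested genes called from 1383 to 2898.

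Among the phosducin-like proteins, which bind CCT and modulate it, Pdcl3 came nearest to Pfdn4. It was at 67.0, 56.3 and 60.9 FPKM in WT and at 4.99, 2.97 and 3.93 FPKM in Lsm14b-KO. The groups were far apart and the Lsm14b-KO libraries close together. Pdcl3 fell by 3.67 on the log2 scale (SE 0.26, adjusted p = 0.000544) and passed under all 16 alternatives (-3.95 to -2.35). Txndc9 was at 1173, 1070.5 and 851 FPKM in WT and at 1286, 254 and 436 FPKM in Lsm14b-KO, with replicate 1 above every WT library (log2 fold change -0.97, adjusted p = 0.225, and -1.62 and 0.00459 with that library left out). Pdcl had a value of 0.48 (adjusted p = 0.273), and Pdcl2 was listed at 0 in all libraries. The median of the 3 tested genes was -0.97.

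Of 7 tubulin folding cofactors, which take tubulin chains on from CCT, 4 were tested. With limma 0 passed, beside 15.2% of all tested genes called lower and 6.38% higher. Of the 4, 1 (Tbcc) had an unadjusted p under 0.05, as did 2518 of all 6398 tested genes. The beta-tubulin cofactor Tbca was at 871, 747 and 604 FPKM in WT and 1191, 185 and 381 FPKM in Lsm14b-KO (log2 fold change -0.74, adjusted p = 0.385, and -1.46 and 0.0126 with replicate 1 left out). The values were -0.68 for Tbcc (adjusted p = 0.0973), -0.33 for Arl2 (0.351) and 0.08 for Tbcb (0.828), with a median of -0.51. Tbca and Arl2 changed sign on other scales. Tbcd and Tbcel were listed at 0 in all libraries and Tbce was under 1 FPKM.

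Among the tubulins and cytoplasmic actins, the clients of prefoldin, 17 of 21 genes were tested, 4 passed as higher and 1 as lower, beside 6.38% and 15.2% of all tested genes, and the median log2 fold change was 1.14. The actin mRNAs Actb (20.2 to 28.1 FPKM in WT and 40.0 to 163 in Lsm14b-KO) and Actg1 (1.08 to 2.25 and 3.02 to 15.03) rose by 1.93 and 1.58 (adjusted p = 0.0338 and 0.0462). Tubb5 rose by 1.85 (adjusted p = 0.0278) and Tuba1a by 1.41 (adjusted p = 0.0494), and Tuba3b fell by 1.91 (adjusted p = 0.0207). Tubulin genes share near-identical stretches, so how fragments were divided between them is uncertain. With TPM scaling 9 genes of the list passed as higher and 0 as lower. Without any 1 library other than Lsm14b-KO replicate 1 the number that passed was 0 or 1, and without Lsm14b-KO replicate 1 it was 14. Among all tested genes, leaving out Lsm14b-KO replicate 1 raised the number called from 1383 to 2898.

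**Figure D4:**
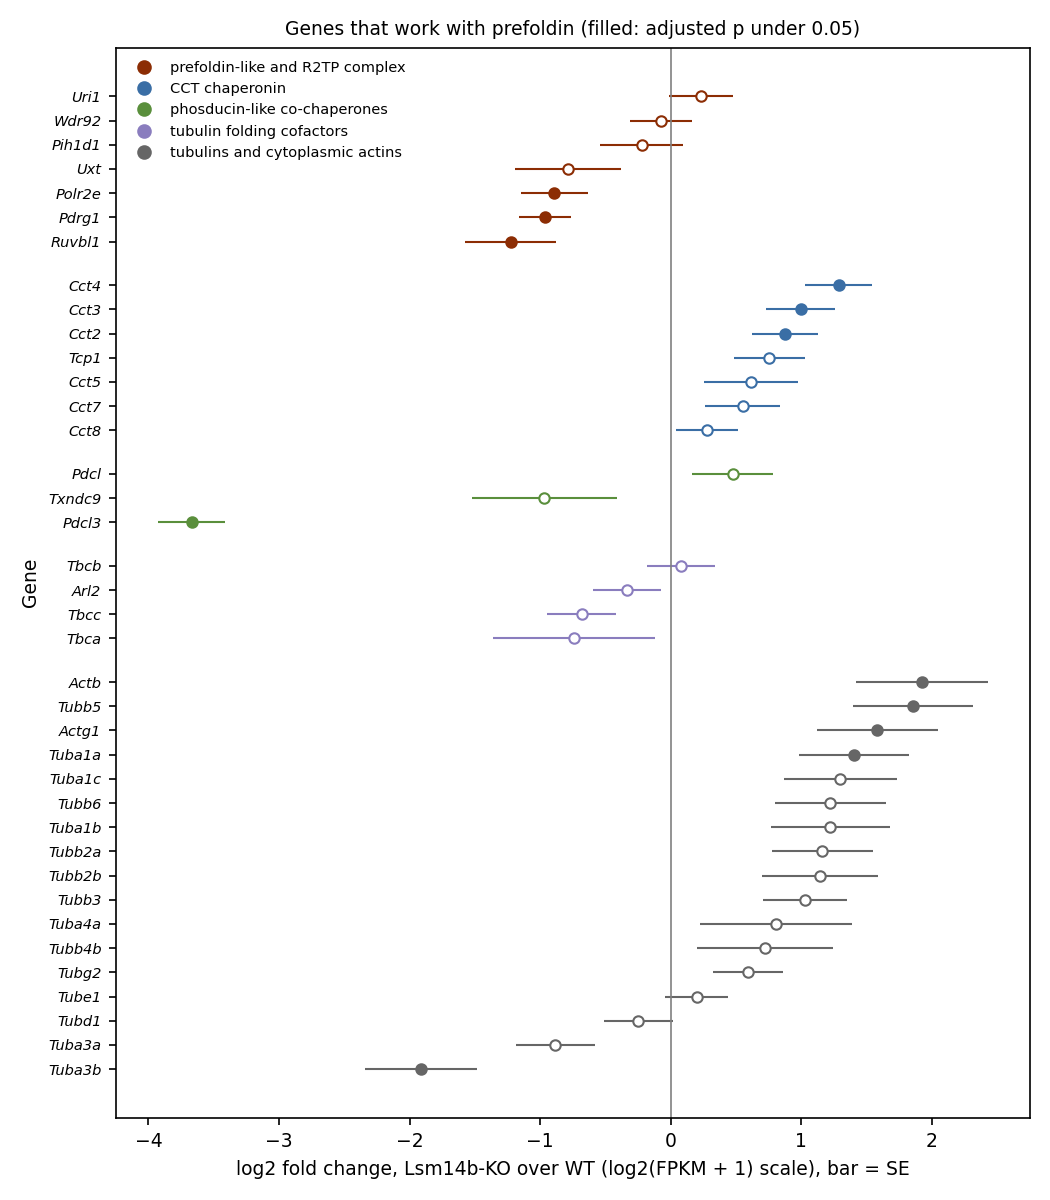
Log2 fold change (Lsm14b-KO over WT, log2(FPKM + 1) scale, bars are SE) of each tested gene of the 5 partner and client lists, with filled points for an adjusted p under 0.05. All 7 CCT subunits lay above 0, 14 of 17 tubulins and actins did, and Pdcl3 lay lowest at -3.67.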

How the data were processed

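RNA from 3 WT and 3 Lsm14b-KO libraries of 20 GV-stage FGOs each was amplified by Smart-seq2. The labels name 2 library kits in different places, and strandedness was not stated. Per the submitters' processing notes, reads were aligned to mm10 with TopHat2 (2.0.13), and the authors computed the deposited FPKM values with Cufflinks (2.2.1). The annotation was not given in the sources used here. The table also holds the authors' log2 fold changes, p-values and q-values, which were not used. It holds no counts, so no count model was fitted, and precision rests on 3 libraries per group. Symbols that a spreadsheet had turned into dates (27) stayed in the fit unnamed.

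Groups came from the titles and genotype labels. The 6398 genes at 1 FPKM or more in any library were fitted with limma 3.58.1 in R 4.3.3 (lmFit, eBayes with trend, two-sided) on log2(FPKM + 1), with genotype as the only term and a threshold of 0.05 on the Benjamini-Hochberg adjusted p. The fit was tested on simulated data. Coordinates and transcripts are those of GENCODE vM21 (GRCm38, the assembly of mm10), using the longest transcript with a RefSeq match. Copies of the subunits were searched for with blastn 2.17.0 (at least 95% identity over 200 nt). FPKM depends on each library's total and on length, so 16 alternatives were run, which varied the pseudocount, filter, scaling, variance model, block and libraries.

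The members and lists were chosen with earlier results of these data known. The genes named are the 6 subunits, Lsm14b, all genes of the prefoldin-like and R2TP, phosducin-like and cofactor lists, the genes past the threshold and the extremes of the CCT and of the tubulin and actin lists, the 5 genes most like Pfdn4, and the genes that overlap or neighbour Pfdn4. Klhdc9 and Gm5644, which share sequence with a subunit, were added after the data were seen. So were Myg1, CR974462.1 and Gm37154, whose annotation overlaps a subunit. The cell type markers named were picked from their lists after their values were seen.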

Additional observations from a re-analysis of the deposited data

How the results depend on the processing

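Pfdn4 and Pdcl3 kept their direction under all 16 alternatives, and so did Vbp1, Pfdn1 and Pfdn6. Against 1383 genes called, no filter on low values gave 720, and leaving out 1 library gave 315 (without Lsm14b-KO replicate 3) to 2898 (without replicate 1). TPM scaling called 1319 genes, 63.2% of them higher in Lsm14b-KO against 29.5% with the deposited FPKM, quantile normalization 42.4% and the length and GC correction 41.3%. Of the 5 subunits other than Pfdn4, 0 passed without a filter, after quantile normalization, after the length and GC correction or with the replicate block, against 1 with the main settings, and 0 to 3 when 1 library was left out. With TPM scaling 1 passed, Pfdn2 in place of Pfdn6.

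Of the prefoldin-like and R2TP list, against 3, 1 gene passed without a filter, 1 after quantile normalization, and 0 with TPM scaling or the length and GC correction, and 0 to 4 passed when 1 library was left out. For CCT that range was 0 to 5, for the phosducin-like proteins 1 to 2 and for the tubulin cofactors 0 to 1. Of the tubulins and actins, against 5, 3 passed with a pseudocount of 10, 0 without a filter, 9 each with TPM scaling, quantile normalization and the length and GC correction, and 0 to 14 when 1 library was left out. In the chromosome 2 interval, against 12, 5 passed without a filter and 6 with TPM scaling, and 2 to 20 when 1 library was left out. Changes of sign were seen for Pfdn2 (-0.15 without Lsm14b-KO replicate 1, and up to 0.40 when another library was left out), Pfdn5 (0.26 with TPM, 0.13 after quantile normalization and 0.011 after the length and GC correction), Tbca (0.011 after quantile normalization and 0.21 after the length and GC correction) and Arl2 (0.34 with TPM and 0.18 after quantile normalization). The cause of these changes was not tested.

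Replicate numbers are shared between the genotypes in the titles. Libraries with the same number had deviations from their group means that correlated at 0.19, -0.13 and 0.02, so the numbers were not taken as pairs. With the replicate number as a block, 1244 genes were called, Pfdn6 had an adjusted p of 0.0631, and 1 gene each of the prefoldin-like and R2TP list and of CCT passed, with all other lists within 1.5 times their main count.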
